A study of Homo sapiens with 14 samples.

Results

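The genes described are FANCI and FANCD2, the pair of proteins at the centre of the Fanconi anaemia pathway, and 6 other genes grouped as crosslink repair factors: USP1, BRIP1, FAN1, SLX4, APITD1 and STRA13. They were chosen by name, as the rows of the guide count tables whose gene symbol is 1 of these 8. The knockout tables list all 8 among 19114 gene symbols, with 4 guides each. The activation tables list 6 of the 8 among 18886 symbols, with 3 guides each. APITD1 and STRA13 are older symbols that the activation tables do not use.

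The Fanconi anaemia pathway repairs crosslinks that join the strands of DNA, and also helps replication forks that meet them. A multi-subunit core complex attaches ubiquitin to FANCI and FANCD2, which then close around the DNA as a clamp and bring in nucleases and recombination proteins, and USP1 removes the ubiquitin again. Oxaliplatin is a platinum drug used against colorectal cancer that forms crosslinks, mostly between neighbouring bases of 1 strand and more rarely between strands.

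RKO and SW620, both colorectal cancer cell lines, were screened. For the knockout screens, cells carrying Cas9 received the Brunello guide library. For the activation screens, cells carrying dCas9-VP64, a cutting-dead Cas9 joined to an activator of transcription, received the Calabrese guide library. All cells had been through blasticidin and puromycin selection. In each library type, RKO cells were collected after 20 days with 1.9 µM oxaliplatin, after 20 days untreated and at day 0. SW620 cells were collected at day 0 and after 20 days untreated, with 0.38 µM or with 0.5 µM oxaliplatin. Each of the 14 conditions is 1 library of guide counts from genomic DNA, so no difference has a replicate check. Each test below compares 2 libraries, or 4 where the lines are set against each other, rather than conditions. A guide's count measures how many cells carry it, not how well it cuts or activates.

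Total counts ran between 3647823 and 69526489 per library, and the treated libraries were uneven. In the RKO knockout screen the most abundant 1% of guides held 41.4% of counts after oxaliplatin, against 3.88% in untreated cells. The RKO activation library after oxaliplatin had a median of 21 counts per guide and 8101 guides at 0. The 32 knockout guides of the 8 genes are 0.0413% of all guides. In RKO they held 0.00716% of counts after oxaliplatin (95% Wilson interval 0.00688% to 0.00745%), against 0.0317% in untreated cells (0.0311% to 0.0323%). In SW620 they held 0.0403% in untreated cells, 0.0238% at 0.38 µM and 0.0179% at 0.5 µM. A share is lowered for most genes when a few guides take much of a library, so these shares alone do not show a loss of the 8 genes. On the log2 scale the summed share differed from untreated by -2.15 in RKO, -0.76 at 0.38 µM and -1.17 at 0.5 µM, where the median of all genes scaled by total counts was -1.28, -0.39 and -2.12. The intervals cover counting error only, because PCR copies of 1 molecule are counted again as reads.

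Values below are counts scaled between libraries by the median ratio over guides. A guide's log2 fold was taken after adding 5 to each scaled count, and a gene's value is the median over its guides. A median of -1 or less, or of 1 or more, is counted as a change past the fold threshold. Beside it stands an exact p of the guides' ranks among all guides, for guides gathered at the low end unless stated otherwise, and that p adjusted over all genes by Benjamini-Hochberg and called below 0.10. Standard deviations (SD) are over the 4 guides of a gene, which are separate reagents in the same 2 libraries and not replicates of the treatment.

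Under 1.9 µM oxaliplatin, RKO cells carrying knockout guides to FANCI, BRIP1, USP1, SLX4 and APITD1 were scarcer than in the untreated culture. These 5 of the 8 genes had a median of -1 or less, where 8.25% of the 17960 genes tested did. Of the 32 guides, 28 were below 0 (87.5%, against 50.2% of all guides). The median over the 8 genes was -1.39, against -0.00193 over all genes tested. An exact rank p below 0.05 was found for 4 of the 8 genes, where 5.67% of all genes had one. None of the 8 passed the adjusted threshold, which 0.00557% of all genes (1 gene) did.

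FANCI, which with FANCD2 forms the clamp, was the lowest of the 8 in RKO. Its 4 guides had scaled counts of 132, 20.4, 76.1 and 20.4 after oxaliplatin, against 266, 125, 407 and 99.1 in untreated cells. Every guide was lower in the treated library. The median log2 fold was -2.19 (SD 0.65, 4 guides), the 38th lowest of 17960 genes, with exact rank p = 0.00477 and adjusted p = 0.621. Its partner FANCD2 had 178, 42.7, 96.6 and 66.9 after oxaliplatin, against 126, 171, 122 and 74.3 in untreated cells. Guide 1 of FANCD2 was higher with drug, guide 2 was lower at -1.88, and the other two lay near 0. The median was -0.23 (SD 1.01), 6761st of 17960 genes. The guides of the 2 partners overlapped only through FANCI guide 1 at -0.99 and FANCD2 guide 2.

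USP1, the deubiquitinase of the pair, had scaled counts of 83.6, 50.1, 87.3 and 40.9 after 1.9 µM oxaliplatin in RKO, against 99.8, 239.7, 341 and 110.0 in untreated cells. Its guide 1 hardly differed at -0.24, and the other 3 lay between -2.15 and -1.33. The median was -1.62 (SD 0.85), with exact rank p = 0.0437 and adjusted p = 0.87.

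BRIP1, also known as FANCJ, is a helicase that binds BRCA1. Its guides had 65.0, 31.6, 44.6 and 68.7 after oxaliplatin in RKO, against 247, 213, 159.6 and 208 in untreated cells. Each BRIP1 guide was lower. The median was -1.79 (SD 0.46), the 137th lowest gene, with exact rank p = 0.00102 and adjusted p = 0.482. SLX4, the scaffold that holds structure-specific nucleases, had 27.9, 52.0, 42.7 and 13.0 after oxaliplatin, against 69.2, 103, 150.1 and 56.1 in untreated cells. Each SLX4 guide was lower as well. Its median was -1.44 (SD 0.41), with exact rank p = 0.0537. FAN1, a nuclease that binds ubiquitinated FANCD2, had 459, 643, 396 and 251 after oxaliplatin, against 452, 637, 238 and 368 in untreated cells. Guides of FAN1 lay on both sides of 0, and the median was 0.02 (SD 0.52), or -1.29 with libraries scaled by total counts, which shifts the median of all genes to -1.28.

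APITD1, and STRA13 where that name stands for CENPX, are histone-fold proteins that work with FANCM at DNA branches and also sit in the centromere complex. APITD1, now CENPS, had 44.6, 100.3, 152 and 115 after oxaliplatin in RKO, against 205, 274, 359 and 283 in untreated cells. Each APITD1 guide was lower, and the median was -1.33 (SD 0.40), with exact rank p = 0.00446 and adjusted p = 0.613. STRA13 had 494, 234, 271 and 98.4 after oxaliplatin, against 708, 391, 386 and 296 in untreated cells. All 4 of its guides were lower, by a median of -0.62 (SD 0.49), which is short of the fold threshold. RefSeq gives STRA13 as an older name of both CENPX and BHLHE40. The knockout tables list BHLHE40 on its own and no CENPX, and the guide sequences, which would settle the target, were not used here.

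In order from the lowest, the RKO medians with drug ran FANCI, BRIP1, USP1, SLX4, APITD1, STRA13, FANCD2 and FAN1. Neighbours in that order differed by at most 0.71, between APITD1 and STRA13, and by 0.40 between FANCI and BRIP1, which is within the SD of the FANCI guides. In SW620 at 0.38 µM the widest step was 1.66, between USP1 and APITD1, and the SD of the APITD1 guides was larger than that. The median SD among the guides of a gene was 0.50 over the 8 genes and 1.10 over all genes in RKO, 1.52 and 1.01 in SW620 at 0.38 µM, and 1.81 and 2.22 at 0.5 µM.

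**Figure D1:**
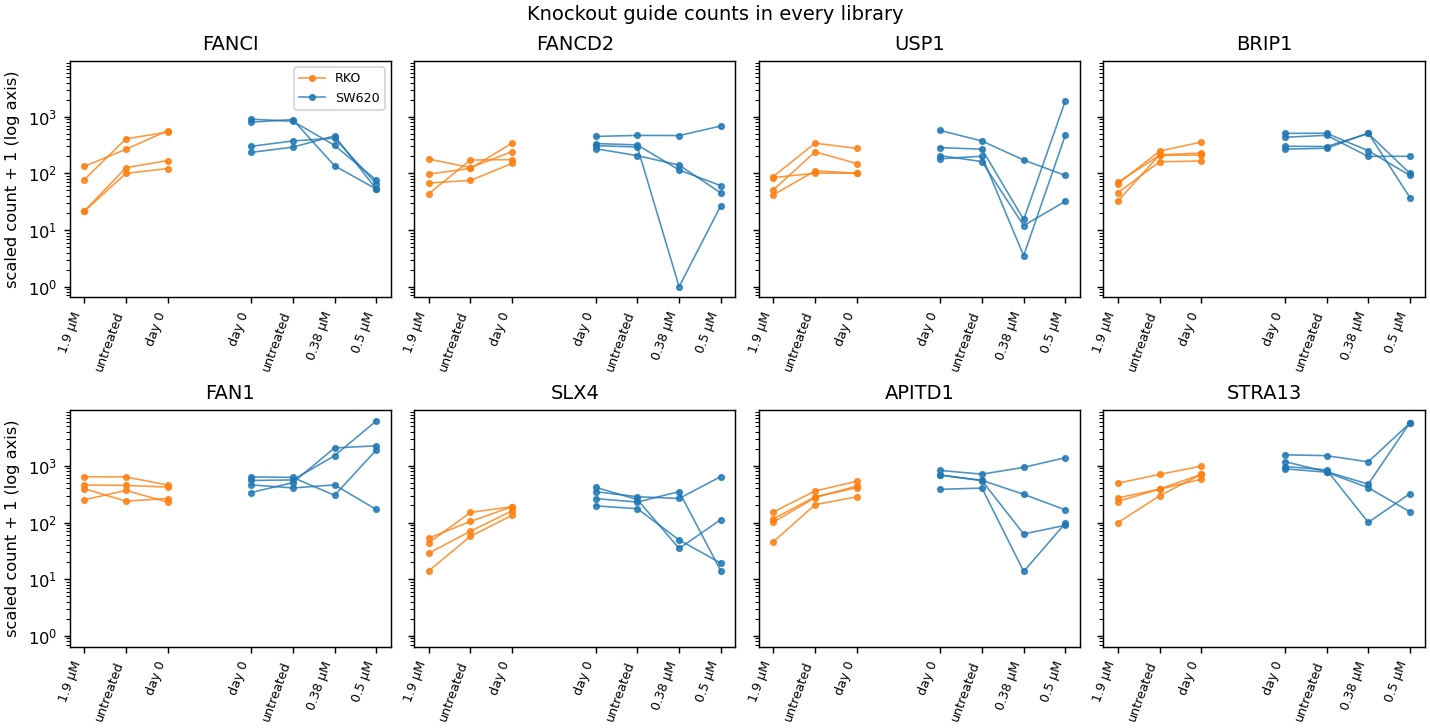
Scaled guide count plus 1 (log axis) of each of the 8 genes in every knockout library, with 1 line per guide, RKO libraries in orange and SW620 libraries in blue. In RKO all 4 guides of FANCI, USP1, BRIP1, SLX4, APITD1 and STRA13 are lowest in the library treated with 1.9 µM. In SW620 the FANCI guides meet between 52.0 and 75.4 at 0.5 µM.

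In SW620 cells at 0.38 µM oxaliplatin, knockout guides to USP1 and APITD1 were the scarce ones. These 2 of the 8 genes had a median of -1 or less, where 8.7% of 19095 genes did, and FANCD2 at -0.99 and SLX4 at -0.93 lay just outside. The count was 6 with scaling by total counts, 5 with scaling by non-targeting guides and 1 with counts summed over guides. The median of all genes moved to -0.39 and -0.27 under these scalings. Shares of all genes are not given for these alternatives, so they show only how the count moves with the processing. An exact rank p below 0.05 was found for 4 of the 8 (USP1, APITD1, STRA13 and FANCD2), where 5.71% of all genes had one. None passed the adjusted threshold, and neither did any other gene (0.0%).

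At 0.5 µM the medians of FANCI, FANCD2, SLX4, BRIP1 and APITD1 were -1 or less, which is 5 of 8 where 30.5% of all genes were. With counts summed over guides 2 of the 8 were left there, FANCI at -3.26 and BRIP1 at -1.86. FANCD2 was then at -0.65, APITD1 at -0.34 and SLX4 at -0.25, and 3 genes were at 1 or more. The share of all genes is not given for summed counts, so these counts do not show how the 8 stand among all genes. By the median over guides, FAN1 was the 1 gene of the 8 at 1 or more, where 25.0% of all genes were. It was at -0.20 with scaling by total counts, which moves the median of all genes to -2.12. FANCI alone had an exact rank p below 0.05, where 5.08% of genes had one, and no gene passed the adjusted threshold (0.0%). This library was noisy: the log2 folds of its 995 non-targeting guides had an SD of 1.91 and a median of 0.98, against an SD of 0.82 and a median of 0.29 at 0.38 µM.

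USP1 guides in SW620 had scaled counts of 200.4, 267, 373 and 161 in untreated cells, 2.54, 14.4, 172 and 11.0 at 0.38 µM, and 479, 1929.6, 91.0 and 31.2 at 0.5 µM. At 0.38 µM all 4 were lower than untreated and 3 were near the floor. The median was -3.59 (SD 1.56), the 13th lowest of 19095 genes and 12.1-fold below untreated, with exact rank p = 0.00231 and adjusted p = 0.636. At 0.5 µM guides 1 and 2 were higher than untreated and guides 3 and 4 were lower. The median there was -0.37 (SD 2.47), or 1.33 with counts summed over the guides, so the lower and the higher dose gave different pictures for the same guides.

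FANCI guides in SW620 had 893, 290.0, 834 and 373 in untreated cells, 135, 459.9, 313 and 419 at 0.38 µM, and 52.0, 52.0, 75.4 and 65.0 at 0.5 µM. At 0.38 µM guides 1 and 3 were lower and guides 2 and 4 were not. At 0.5 µM all 4 were lower than untreated, where 50.6% of all guides were. The median was -0.62 (SD 1.52) at 0.38 µM, with exact rank p = 0.0555, and -2.91 (SD 0.78) at 0.5 µM, with exact rank p = 0.00174 and adjusted p = 0.621.

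FANCD2 guides had 318, 292, 469 and 205 in untreated SW620 cells, 114, 0, 466 and 139 at 0.38 µM, and 59.8, 26.0, 687 and 44.2 at 0.5 µM. Guide 3 stayed at its untreated level or above while the other 3 were lower at both doses. Guide 2 had 362 counts in untreated cells and 0 counts at 0.38 µM, which makes it at least 115-fold lower, taking 3 counts as the limit of a count of 0 in that library. Guide 2 was also the lowest FANCD2 guide in RKO and at 0.5 µM. The median was -0.99 (SD 2.68) at 0.38 µM, with exact rank p = 0.0166 and adjusted p = 0.773, and -2.21 (SD 1.63) at 0.5 µM, with exact rank p = 0.563.

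BRIP1 guides had 511, 470.2, 297 and 277 in untreated SW620 cells, 251, 199, 506 and 517 at 0.38 µM, and 91.0, 200.2, 98.8 and 36.4 at 0.5 µM. At 0.38 µM guides 1 and 2 were lower and guides 3 and 4 higher. At 0.5 µM all 4 were lower than untreated, where 50.6% of all guides were. The medians were -0.13 (SD 1.12) at 0.38 µM and -1.98 (SD 0.73) at 0.5 µM, the second with exact rank p = 0.484.

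SLX4 guides had 229, 254, 284 and 174 in untreated SW620 cells, 351, 33.8, 265 and 48.2 at 0.38 µM, and 13.0, 112, 648 and 18.2 at 0.5 µM. Guides 2 and 4 were lower at both doses, guide 1 was lower at 0.5 µM only, and guide 3 was above untreated at 0.5 µM. The medians were -0.93 (SD 1.52) and -2.05 (SD 2.17). FAN1 guides had 625, 564, 507 and 406 in untreated cells, 301, 1510.0, 2074 and 461 at 0.38 µM, and 1906, 6226, 2259.9 and 169 at 0.5 µM. Guides 2 and 3 were more abundant at both doses, and 1 guide was below untreated at each dose, a different one each time. The median was 0.80 (SD 1.36) at 0.38 µM and 1.87 (SD 1.98) at 0.5 µM, where the exact rank p for guides gathered at the high end was 0.0682 and 0.466.

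APITD1 guides had 405, 555, 713 and 548 in untreated SW620 cells, 12.7, 314, 942 and 61.7 at 0.38 µM, and 96.2, 166, 1397 and 88.4 at 0.5 µM. Guide 3 was above untreated at both doses and the other 3 were below it. The median was -1.93 (SD 2.21) at 0.38 µM, with exact rank p = 0.00278 and adjusted p = 0.669, and -1.86 (SD 1.57) at 0.5 µM. With counts summed over its guides, APITD1 was at -0.74 and -0.34, short of the fold threshold at both doses. STRA13 guides had 1514, 789, 773 and 851 in untreated cells, 1178, 475, 411 and 99.8 at 0.38 µM, and 5695, 5809.7, 153 and 322 at 0.5 µM. All 4 were lower at 0.38 µM, with a median of -0.82 (SD 1.21) and exact rank p = 0.0094, and they split 2 against 2 at 0.5 µM, with a median of 0.26 (SD 2.50). That value was 1.61 with counts summed over guides and -1.80 with scaling by total counts.

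**Figure D2:**
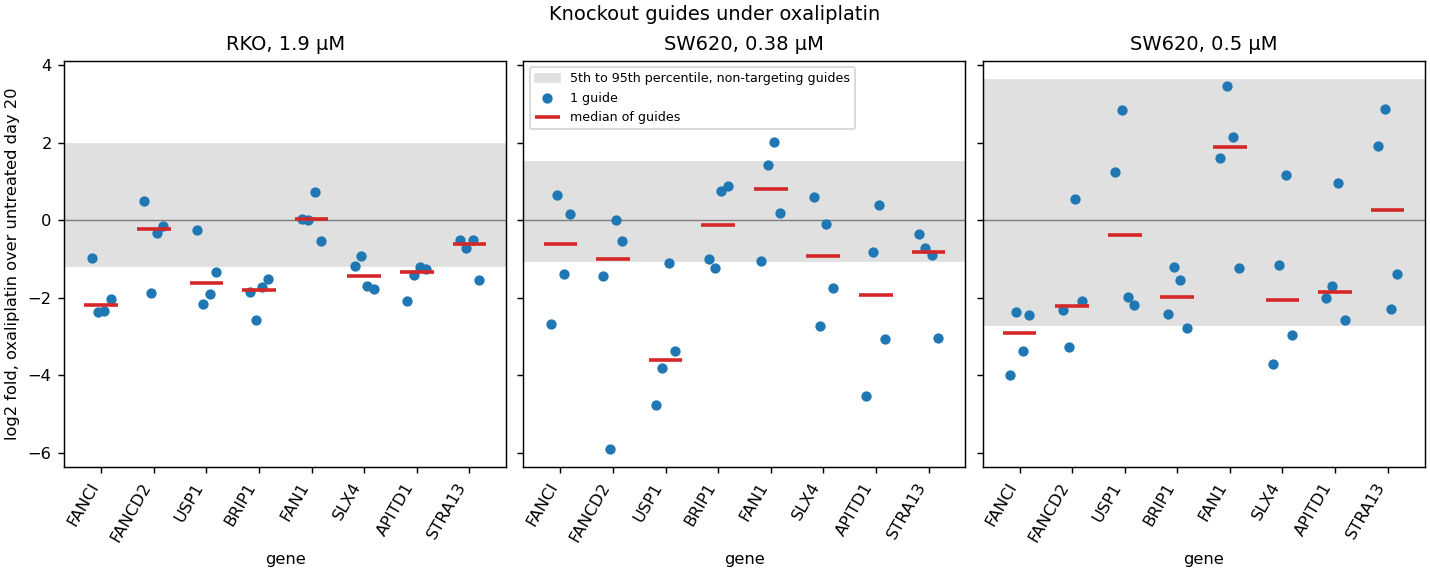
Log2 fold of each knockout guide of the 8 genes, oxaliplatin over untreated cells at day 20, for RKO (1.9 µM) and SW620 (0.38 and 0.5 µM), with the median of the 4 guides in red and a grey band for the non-targeting guides between their 5th and 95th percentiles. In RKO the SD over a gene's guides runs from 0.40 for APITD1 to 1.01 for FANCD2, and FANCD2 and FAN1 guides lie on both sides of 0. At 0.5 µM only FANCI and BRIP1 have all 4 guides below -1, and the guides of the other genes lie on both sides of 0.

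The SW620 doses were also set against each other directly, with 0.5 µM over 0.38 µM. Of the 8 genes, 7 had the 3 guides needed, because USP1 kept 1 guide above 20 scaled counts in the 0.38 µM library. FANCI at -2.29 and BRIP1 at -1.86 were -1 or less (2 of 7, where 29.2% of genes were), and STRA13 at 1.96 and FAN1 at 1.08 were 1 or more (2 of 7, where 25.1% were). No member had an exact rank p below 0.05 in this comparison.

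**Figure D3:**
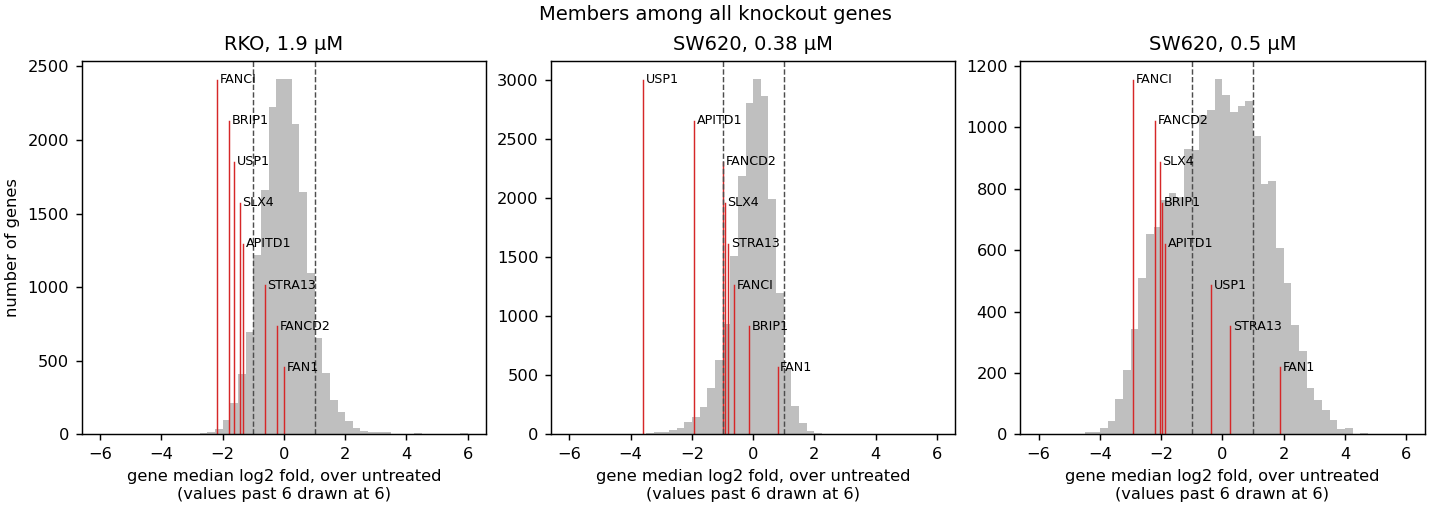
Number of genes by median log2 fold of their knockout guides, oxaliplatin over untreated day 20, with red lines at the 8 genes and dashed lines at -1 and 1. FANCI at -2.19 in RKO and USP1 at -3.59 in SW620 at 0.38 µM sit in the left tail, and at 0.5 µM the distribution of all genes is itself wide.

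The lines were treated with different doses, so their values stand side by side and the difference of folds describes 2 screens. Taking the RKO fold minus the SW620 fold at 0.38 µM guide by guide, BRIP1 at -1.88, FANCI at -1.57 and FAN1 at -1.01 were -1 or less (3 of 8, where 13.8% of genes were). USP1 at 1.86 and FANCD2 at 1.16 were 1 or more (2 of 8, where 17.2% of genes were). Against 0.5 µM, FAN1 at -1.50 and STRA13 at -1.29 were -1 or less (25.1% of genes), and FANCD2 at 1.66 was 1 or more (30.2% of genes). None of the 8 had an exact rank p below 0.05 in either difference, so at the spread of these guides no gene was shown to differ between the lines.

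Over the 20 days without drug, STRA13 and APITD1 guides fell in RKO. STRA13 guides had scaled counts of 708, 391, 386 and 296 at day 20, against 988, 706, 582 and 711 at day 0, a median log2 fold of -0.72 (SD 0.34, exact rank p = 0.000488, adjusted p = 0.0106). APITD1 guides had 205, 274, 359 and 283 at day 20, against 284, 439.8, 534 and 411 at day 0, a median of -0.55 (SD 0.09, exact rank p = 0.00692, adjusted p = 0.0749). Every guide of both genes was lower at day 20. They were the 2 genes of the 8 called, where 9.85% of all genes were called as depleted.

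SLX4 at -0.999 (SD 0.40, adjusted p = 0.223 from exact ranks) and FANCD2 at -0.94 (SD 0.60, adjusted p = 0.268 from exact ranks) had lower medians than both but did not pass. FANCI was at -0.40, BRIP1 at -0.07, USP1 at 0.22 and FAN1 at 0.28. Non-targeting guides had a median of 0.51 in RKO and 0.25 in SW620 over the same days. In SW620 the 8 medians lay between -0.26 for APITD1 and 0.23 for FANCI, and none was called, where 3.76% of all genes were. The RKO minus SW620 difference in untreated growth was called for STRA13 alone among the 8 (-0.41, adjusted p = 0.0618 from exact ranks), where 7.99% of all genes were called lower in RKO. The STRA13 call was lost without standardisation of the folds by count. FANCI came next in that test at -0.65, with adjusted p = 0.148 from exact ranks.

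**Figure D4:**
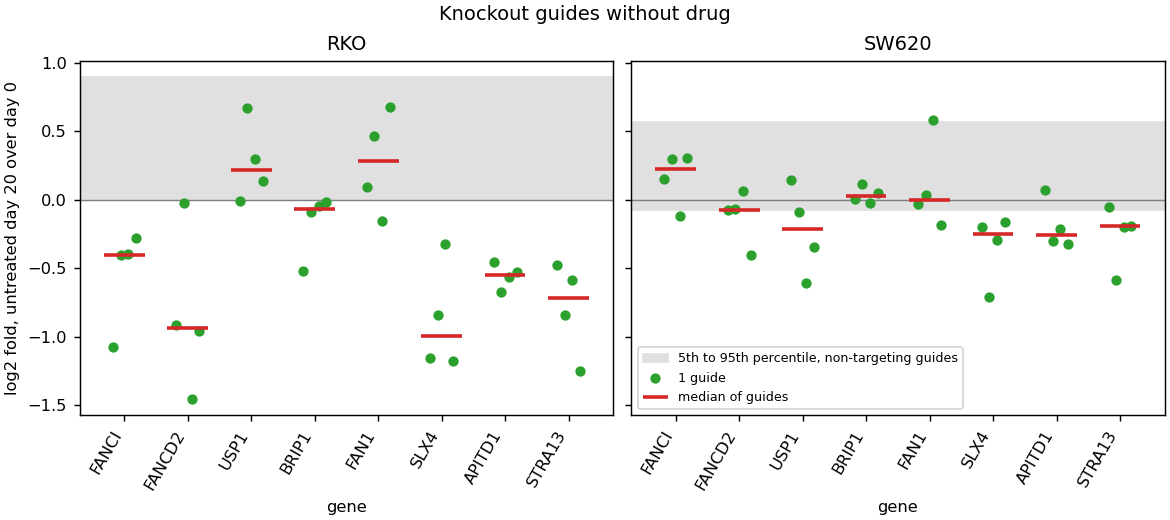
Log2 fold of each knockout guide of the 8 genes over 20 days without drug, day 20 over day 0, in RKO and SW620, with the median of the 4 guides in red and a grey band for the non-targeting guides between their 5th and 95th percentiles. In RKO the guides of APITD1 and STRA13 lie together below 0, with medians of -0.55 and -0.72, and in SW620 all 8 medians lie between -0.26 and 0.23.

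The untreated decline adds to the drug contrast when treated cells are set against day 0. On that basis 4 of the 8 genes passed the adjusted threshold in RKO, where 3.12% of all genes did: APITD1 at -1.94 (adjusted p = 0.00436 from exact ranks), STRA13 at -1.33 (0.0300), FANCI at -2.53 (0.0619) and SLX4 at -2.18 (0.0903). In SW620 at 0.38 µM USP1 passed, at -3.81 with adjusted p = 0.0526 from exact ranks, where 0.251% of all genes did. At 0.5 µM none of the 8 passed, where 0.0314% of all genes did. These folds mix 20 days of growth with the response to the drug, and the untreated day 20 library remains the comparison for oxaliplatin itself.

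FANCI and FANCD2 were not among the nearest genes of each other over the 5 knockout comparisons (3 treated over untreated, 2 untreated over day 0). By Euclidean distance between median log2 folds, the genes nearest to FANCI were CBX1 (0.56), RAB5C (0.60) and HM13 (0.66), and FANCD2 was 1164th of 17956 genes at 2.20. Nearest to FANCD2 were POTEM (0.39), MBD3 (0.41) and CDC6 (0.42), and FANCI was 4993rd. Comparisons with the same untreated library share its counts, so these distances are a description only.

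The core complex and its ubiquitin-conjugating enzyme UBE2T, which load ubiquitin on FANCI and FANCD2, gave the pathway context. In RKO, 6 of 12 of these genes were at -1 or less with drug (median -1.002, against -0.00193 for all genes, of which 8.25% were at -1 or less), led by FANCL, the ubiquitin ligase subunit, at -1.70, UBE2T at -1.68 and FANCG at -1.32. In SW620 at 0.38 µM it was 5 of 12, where 8.7% of all genes were, led by C19orf40 (FAAP24, a DNA-binding partner of FANCM) at -3.06, FANCL at -2.16 and FANCM at -1.68. At 0.5 µM it was 6 of 12, where 30.5% of all genes were, with C17orf70 (FAAP100) at -2.72, FANCB at -1.95 and FANCE at -1.93. None of the 12 passed the adjusted threshold with drug. In untreated RKO growth 6 of the 12 did, where 9.85% of all genes did.

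USP1 works with WDR48, also called UAF1, and the pair is directed to other substrates by ATAD5. WDR48 rose in RKO: its 3 guides lay between 3.22 and 4.03 with drug, a median of 3.97, and it was called as enriched (adjusted p = 0.0145 from exact ranks). ATAD5 was at 1.26 there and did not pass. In SW620 WDR48 was at 1.97 at 0.38 µM and 2.97 at 0.5 µM, not called at either dose, and ATAD5 was at -0.05 and -0.997. WDR48 also binds the deubiquitinases USP12 and USP46, so it is not a partner of USP1 alone.

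Among 8 nuclease genes and SLX4 partners, 3 were at -1 or less in RKO, where 8.25% of all genes were: SLX1B, a nuclease subunit held by SLX4, at -2.04, EME1, the partner of MUS81, at -1.33 and DCLRE1A (SNM1A) at -1.30. SLX1A and SLX1B are near-identical copies, and SLX1A was at 1.66. In SW620 it was 2 of 8 at 0.38 µM, where 8.7% of all genes were, with MUS81 at -1.50, EME1 at -1.17 and next ERCC4 (XPF) at -0.80. At 0.5 µM it was also 2 of 8, with ERCC4 at -1.93, MUS81 at -1.55 and next EME1 at -0.65, and this is below the share of all genes there (30.5%). None passed the adjusted threshold in the 3 treated comparisons.

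Of 7 recombination partners, 5 could be tested in RKO with drug and none was at -1 or less, the lowest being RBBP8 (CtIP) at -0.61, RFWD3 at -0.05 and XRCC2 at 0.10. In SW620 it was 3 of 7 at both doses, where 8.7% of all genes were at 0.38 µM and 30.5% at 0.5 µM. In untreated RKO growth 5 of these 7 were called as depleted, where 9.85% of all genes were.

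Activation guides work close to a gene's transcription start, where dCas9-VP64 is brought to the promoter. BRIP1 activation guides were all lower with drug in every treated library. FANCD2 activation guides split in RKO and at the higher SW620 dose, but all were lower at the lower SW620 dose. The promoters of BRIP1 and FANCD2 are therefore shown. Both run 5′ to 3′ on the gene's strand, from 250 bases before the start to 50 after it (RefSeq, GRCh38.p14). BRIP1 is at chr17:61863479-61863778 on the minus strand and FANCD2 at chr3:10026187-10026486 on the plus strand. Capitals mark the CCAAT box, searched as CCAAT on either strand.
BRIP1: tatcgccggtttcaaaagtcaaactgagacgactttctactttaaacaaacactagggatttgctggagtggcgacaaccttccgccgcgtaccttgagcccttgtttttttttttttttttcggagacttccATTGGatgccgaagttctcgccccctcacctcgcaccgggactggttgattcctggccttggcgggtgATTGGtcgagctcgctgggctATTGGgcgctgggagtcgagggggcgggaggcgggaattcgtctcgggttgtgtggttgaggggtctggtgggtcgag
FANCD2: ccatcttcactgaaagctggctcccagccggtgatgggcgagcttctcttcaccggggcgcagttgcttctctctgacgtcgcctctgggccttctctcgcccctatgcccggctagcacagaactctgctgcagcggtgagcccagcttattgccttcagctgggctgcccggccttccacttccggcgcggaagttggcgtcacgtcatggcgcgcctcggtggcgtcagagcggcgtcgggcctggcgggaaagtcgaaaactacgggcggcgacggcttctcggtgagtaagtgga
The BRIP1 window holds 3 CCAAT boxes, read as ATTGG on the gene's strand and beginning 117, 49 and 28 bases before the start. The FANCD2 window holds none, and 34.6% of 34796 promoters of the same length hold at least 1. Of the other genes, 1 USP1 window holds 2 and the other none, CENPX holds 5, and FAN1, SLX4 and CENPS hold none. No FANCI window was available. These promoters were picked by the values of their guides, and a link between boxes and guide values was not tested.

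In RKO at 1.9 µM, 4 of the 6 genes listed in the activation tables had a median of -1 or less, where 47.4% of 18771 genes did, so the count says little about these genes. All-gene and non-targeting medians were -0.81 and 2.25 in that library. BRIP1 guides had scaled counts of 186, 0 and 28.6 after oxaliplatin, against 247, 175 and 242 in untreated cells. All 3 BRIP1 guides were lower, guide 2 at least 8.16-fold, and the median was -2.88 (SD 2.39, exact rank p = 0.411).

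In the same library USP1 was at -3.56, FANCI at -2.69, SLX4 at -2.24, FANCD2 at -0.26 and FAN1 at -0.26. The guides at these medians had few raw counts after oxaliplatin: 3 for USP1, 4 for FANCI and 9 for SLX4. It was 39 for FANCD2 and 43 for FAN1, and 4 for the BRIP1 guide at its median. SLX4 guide 2 was at 0 counts, at least 4.91-fold lower than untreated. No member had an exact rank p below 0.05 there.

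In SW620 cells BRIP1 activation guides had 169, 52.3 and 154 in untreated cells, 130.5, 34.2 and 108 at 0.38 µM, and 29.7, 3.87 and 47.8 at 0.5 µM. Every guide was lower than untreated at both doses. The median was -0.49 (SD 0.10) at 0.38 µM and -2.32 (SD 0.56) at 0.5 µM, the second with exact rank p = 0.00769 and adjusted p = 0.907. With RKO, all 9 BRIP1 guide values in treated libraries were below 0, where 57.6% of all guides were in RKO, 49.8% in SW620 at 0.38 µM and 50.2% at 0.5 µM. The 6 SW620 values share 1 untreated library, and the same 3 guides stand behind all 9 values. BRIP1 was singled out by these values, so their signs are a description only. At 0.38 µM its median was 4998th lowest of 18766 genes.

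FANCI activation guides had 139.5, 110.5 and 227 in untreated SW620 cells, 12.4, 45.6 and 74.6 at 0.38 µM, and 386, 103 and 856 at 0.5 µM. All 3 were lower at 0.38 µM, while at 0.5 µM guides 1 and 3 were higher than untreated. The median was -1.54 (SD 0.99, exact rank p = 0.0159, adjusted p = 0.925) at 0.38 µM and 1.44 (SD 1.04) at 0.5 µM. FANCI was the 1 gene of 6 at -1 or less at 0.38 µM, where 11.0% of genes were.

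At 0.5 µM BRIP1, USP1 and SLX4 were -1 or less (3 of 6, where 15.3% of genes were) and FANCI was 1 or more (1 of 6, where 12.3% were). USP1 guides had 206, 276 and 122 in untreated cells, 398, 238 and 165 at 0.38 µM, and 848, 107 and 0 at 0.5 µM. Guide 3 was at least 31.5-fold lower at 0.5 µM, while guide 1 was higher, for a median of -1.33 (SD 3.34, exact rank p = 0.0473, adjusted p = 0.956). FAN1 at 0.38 µM was at -0.85 (SD 0.65, exact rank p = 0.0406, adjusted p = 0.984), and at 0.5 µM at 0.08. FANCD2 was at -0.29 at 0.38 µM and 0.34 at 0.5 µM, and SLX4 at 0.26 and -1.03. With folds standardised by the mean of both libraries' counts, none of the 6 genes had a rank p below 0.05 at either dose. The untreated SW620 activation library was shallow, with a median of 62 counts per guide.

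**Figure D5:**
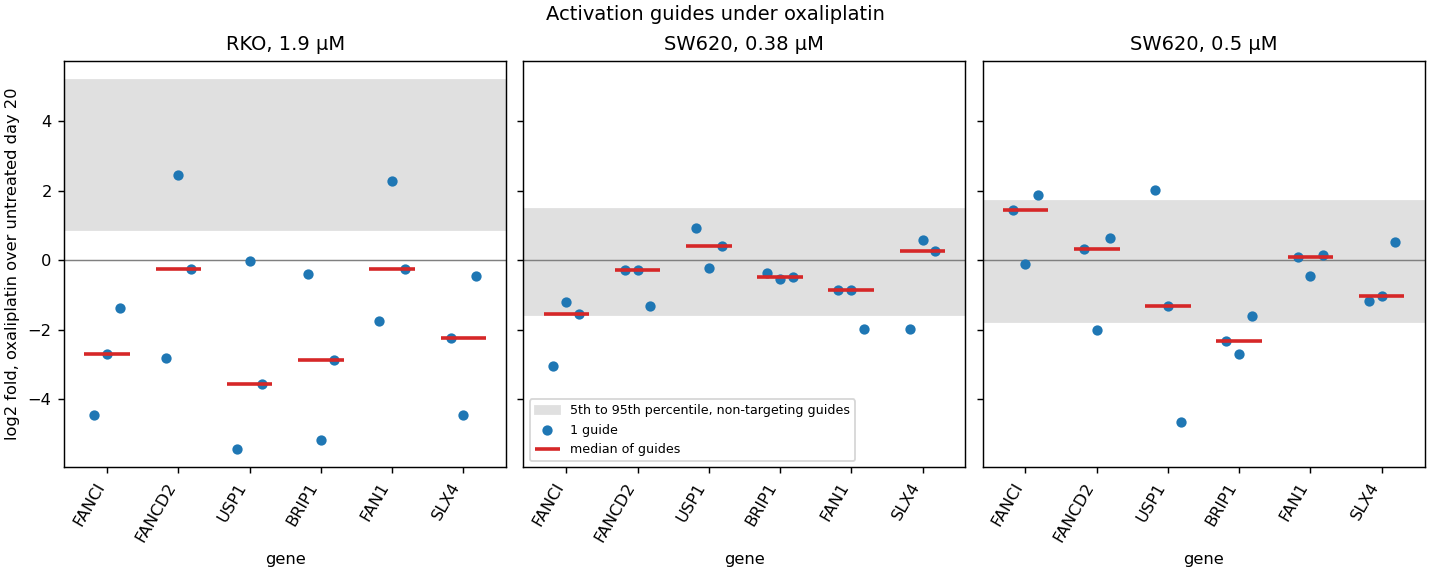
Log2 fold of each activation guide of the 6 genes listed, oxaliplatin over untreated day 20, with the median of the 3 guides in red and a grey band for the non-targeting guides between their 5th and 95th percentiles. BRIP1 has all 3 guides below 0 in each panel, and FANCI guides are below 0 at 0.38 µM and mostly above 0 at 0.5 µM.

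Without drug the medians of the 6 genes in the activation screens lay between -0.48 for SLX4 and 0.44 for FANCI in RKO, and between -0.21 for FAN1 and 0.34 for FANCD2 in SW620, with no exact rank p below 0.05. The activation tables also list CENPX, a candidate for the target of the STRA13 knockout guides. CENPX activation guides had a median of -0.81 in RKO with drug, -1.75 at 0.38 µM (exact rank p = 0.0435, adjusted p = 0.984) and 0.31 at 0.5 µM in SW620. The readthrough gene APITD1-CORT, which spans APITD1, has knockout and activation guides of its own. Its activation guides had a median of -0.55 in RKO with drug, and of 0.56 at 0.38 µM and -1.19 at 0.5 µM in SW620. Its 4 knockout guides lay between -2.35 and 1.42 in RKO with drug, a wider range than the -2.09 to -1.21 of the APITD1 guides. In SW620 they lay between -2.34 and 2.25 at 0.38 µM, where APITD1 guides lay between -4.53 and 0.40. At 0.5 µM the ranges were -2.14 to 1.16 and -2.56 to 0.96.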

How the data were processed

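Guide counts were measured by amplicon sequencing of genomic DNA from RKO and SW620 cells, in 14 libraries of 1 per condition. For each of 4 screens the authors deposited raw guide counts and, in a second table, a normalized signal; each signal column was checked to be the count column times 1 constant. The tools were MAGeCK 0.5.7 and cutadapt 4.0, per the submitters' processing notes; their roles and a genome build are not given in the sources used here. All columns matched a sample by name (0 left without one).

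Libraries were brought to a common scale by the median ratio of their guide counts (Python 3.11.15, numpy 2.4.6, pandas 2.3.3, scipy 1.17.1, matplotlib 3.10.9). Guides with under 20 scaled counts in the control library were left out, and genes needed 3 knockout or 2 activation guides. Log2 folds (pseudocount 5) were standardised within 50 bins of the control count and ranked. Genes were scored by robust rank aggregation (rank shares up to 0.25) with an exact p, by a recursion over order statistics that gives the same p as the determinant first planned, and adjusted by Benjamini-Hochberg. The method was tested on simulated data, with screen counts drawn around the untreated RKO knockout counts. Those counts are more even than the treated libraries, so the test does not show how the method performs there. Guides at 0 were given a limit of 3 counts.

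The 8 genes and the pathway lists were chosen with earlier results of these data known. All 8 are reported in every knockout comparison; of each list, the 3 genes with the lowest medians and any gene called are named, except that some genes of the lists are not reported here. Alternatives covered scaling, pseudocount, count filter, standardisation, fold threshold, summed counts and day 0 as control.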

Additional observations from a re-analysis of the deposited data

Results flagged for a closer look

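STRA13 was the 1 member for which the test of the line difference in untreated growth passed its threshold. Its guides fell further in RKO than in SW620, by a median difference of -0.41 (log2 fold in RKO minus log2 fold in SW620, all 4 guides below 0, adjusted p = 0.0618 from exact ranks). The 4 differences lay between -1.06 and -0.26. Each line contributes 1 day 20 and 1 day 0 library, so the test compares 4 libraries. Whether the STRA13 guides target CENPX or BHLHE40 was not tested.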

How the results depend on the processing

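The alternatives gave 215 member medians for the 3 treated knockout comparisons and 466 counts of members. Of the medians, 185 kept their direction and side of the fold threshold and 4 reversed; of the counts, 402 stayed within 1.5 times and 64 did not. Counts at a median of -1 or less or 1 or more below are of the genes tested. Except for day 0 as control, shares of all genes are not given beside these counts. They show how a count moves with the processing, not how the members stand among all genes.

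With scaling by total counts, which moves all genes in these uneven libraries, FAN1 reversed to -1.29 in RKO and -0.20 in SW620 at 0.5 µM, and STRA13 to -1.80 at 0.5 µM. Genes at -1 or less then numbered 8 in RKO knockout, 6 in SW620 knockout at 0.38 µM, 5 for 0.5 over 0.38 µM, 2 in untreated RKO growth, 2 in SW620 activation at 0.38 µM and 0 for RKO minus SW620 at 0.5 µM. The median of all genes was itself -1.28 in RKO knockout, -0.39 in SW620 knockout at 0.38 µM and -1.65 for 0.5 over 0.38 µM. Genes at 1 or more numbered 0 in SW620 knockout and activation at 0.5 µM and for 0.5 over 0.38 µM, and 1 and 3 for RKO minus SW620 at 0.38 and 0.5 µM. Rank p below 0.05 was found for 1 gene in the line difference in growth, RKO activation and SW620 activation at 0.5 µM.

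With scaling by non-targeting guides, genes at -1 or less numbered 5 in SW620 knockout at 0.38 µM, 4 in untreated RKO growth and 0 for RKO minus SW620 at 0.5 µM. The median of all genes was then -0.27, -0.41 and 0.83 in these comparisons. Genes at 1 or more numbered 0 at 0.5 µM, 1 for 0.5 over 0.38 µM and 3 for RKO minus SW620 at 0.5 µM, and rank p below 0.05 was found for 1 gene in the growth difference and in RKO activation. With counts summed over guides, USP1 at 0.5 µM reversed to 1.33. Genes at -1 or less then numbered 1 in SW620 knockout at 0.38 µM, 2 at 0.5 µM, 5 for RKO minus SW620 at 0.5 µM, 2 in SW620 activation at 0.38 µM, and 1 at 0.5 µM and for 0.5 over 0.38 µM. Genes at 1 or more numbered 3 in SW620 knockout at 0.5 µM and 0 for RKO minus SW620 at 0.38 µM.

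With bins of the mean count, rank p below 0.05 was found for 0 genes in SW620 activation at either dose, 1 for 0.5 over 0.38 µM there, 2 in SW620 knockout at 0.5 µM, 2 in untreated growth of each line and 1 in the growth difference, and 1 gene was called in untreated SW620 growth. Without standardisation, 0 genes had rank p below 0.05 or were called in the growth difference, and 1 had such a p in activation for 0.5 over 0.38 µM. With day 0 as control, 4 genes were called in RKO and 1 in SW620 knockout at 0.38 µM, where 3.12% and 0.251% of all genes were. At that dose 5 were at -1 or less and 2 in activation, where 10.5% and 10.8% of all genes were. Rank p below 0.05 was then found for 2 in SW620 knockout at 0.5 µM and 1 in activation at each dose.

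With a control count of 100 or more, SW620 activation had 2 genes at -1 or less and 1 with rank p below 0.05 at 0.38 µM, 1 with such a p for 0.5 over 0.38 µM, and RKO minus SW620 knockout at 0.5 µM had 2 at 1 or more. With no count filter, rank p below 0.05 was found for 1 gene in the growth difference and in SW620 activation at 0.38 µM. With a pseudocount of 20 it was 1 gene in each treated activation library, and with a pseudocount of 1 untreated RKO growth had 1 gene at -1 or less. With a log2 fold of 0.5 as the threshold, 6 genes passed in SW620 knockout and 2 in activation at 0.38 µM. With the 5th percentile of all genes as the threshold, 1 gene passed in SW620 knockout and activation at 0.5 µM and 0 in RKO activation, and 0 passed the 95th percentile in knockout at 0.5 µM. The causes were not tested. No paired analysis was possible because each condition has 1 library.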
